A study of Mus musculus with 6 samples.

Results

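Albumin and 8 other proteins that hepatocytes release into plasma at all times were followed at the RNA level in mouse liver. The members were the genes named Alb, Ttr, Rbp4, Ahsg, Fetub, Gc, Afm, Hrg and Azgp1, chosen by name, and each of the 9 was found once among the 28880 genes measured. The libraries came from livers of 3 acute ethanol-exposed and 3 control mice, all male wild-type C57BL/6J animals of 6 to 8 weeks. Exposed mice were fasted for 12 h, received 50% ethanol once by mouth at 6 g/kg, and gave liver 24 h later. Control mice received no ethanol, and whether they were fasted or gavaged was not stated, so the effects of ethanol, fasting and gavage cannot be told apart. The labels place all 6 libraries in the same batch.

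Plasma carriers keep small or poorly soluble molecules in circulation. Albumin binds fatty acids and bilirubin and sets most of the colloid osmotic pressure of plasma. Transthyretin (Ttr) carries thyroxine and holds the retinol-binding protein Rbp4 in the blood, and the Gc protein carries vitamin D. Afamin (Afm) is a relative of albumin that binds vitamin E. Fetuin-A (Ahsg), fetuin-B (Fetub) and histidine-rich glycoprotein (Hrg) belong to the cystatin superfamily, and Azgp1 encodes zinc-alpha-2-glycoprotein. Several of them, albumin and transthyretin among them, are known as negative acute-phase proteins because their plasma level falls during inflammation.

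Between 60514417 and 74210869 reads were counted on genes per library. The widest 95% Wilson interval of a member's share of counts spanned 3.73% of that share, and such intervals cover counting error only. Fold changes depended strongly on scaling. The TMM method, which sets the bulk of genes level between libraries, gave factors of 0.768 to 0.836 after ethanol and 1.26 to 1.27 in controls. Among the 16717 genes tested the median log2 fold change (log2FC) was -0.04 with TMM and -0.71 when library size alone was used, and every member therefore has a TMM-scaled value (CPM, counts scaled to the effective library size) and an unscaled one (percent of all counts). Ethanol replicate 3 stood apart in positive acute-phase transcripts, which took 9.62% of its counts against 3.99% and 3.26% in the other ethanol-exposed mice and 2.14% to 2.33% in controls.

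Alb was the most abundant gene per transcript length in all 6 libraries. Its FPKM (fragments per kilobase of transcript and library size) was 26747 ± 2974 in controls and 29681 ± 1646 after ethanol (SD, n = 3). In control mice the FPKM order below Alb was Ttr (4480 ± 150), Ahsg (2966 ± 55.8), Gc (2934 ± 64.5), Rbp4 (1279 ± 21.4), Azgp1 (564 ± 44.1), Hrg (349 ± 11.8), Fetub (201 to 219 over the 3 mice) and Afm (84.2 ± 10.4; mean ± SD, n = 3, except for Fetub). Only the neighbours Ahsg and Gc overlapped there, with 2902 to 3002 FPKM for Ahsg and 2891 to 3008 for Gc. The order of the group means was the same after ethanol, where Ttr, at 3462 to 4305 FPKM, overlapped Ahsg, at 3516 to 3769, while Ahsg no longer overlapped Gc, at 2841 to 3131. Of the 9 members, 5 were among the 100 genes of highest FPKM in every library, and Azgp1, Hrg, Fetub and Afm ranked lower in at least 1 library.

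**Figure D1:**
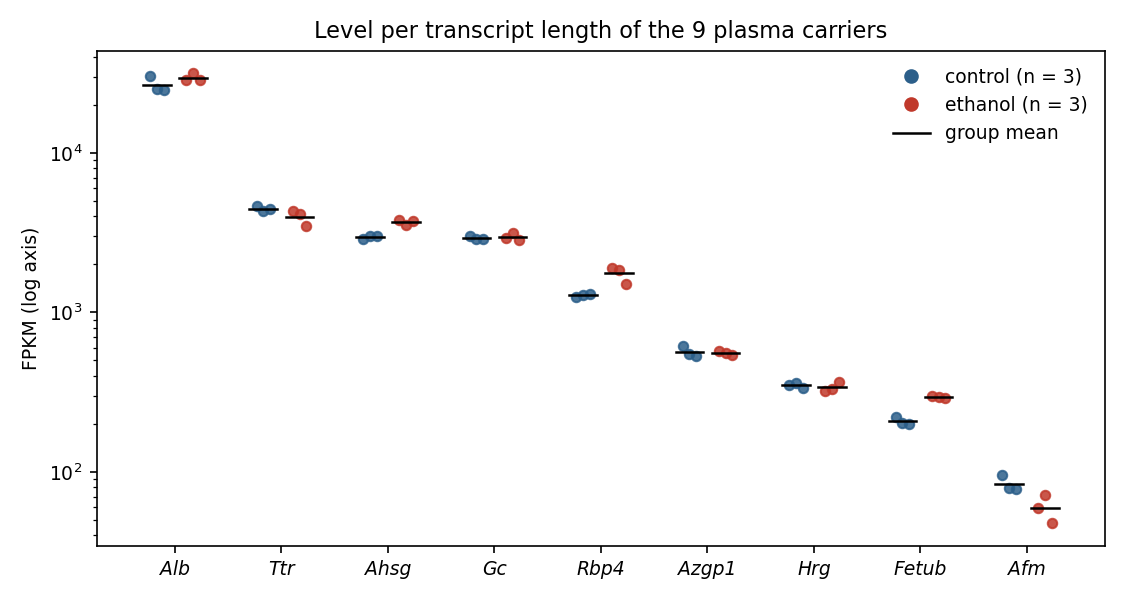
Level of each plasma carrier in FPKM on a log axis, ordered by the control mean, with 1 point per mouse (blue, control; red, acute ethanol; n = 3 each) and black lines for group means. Alb lies above all other members, the order of the means is shared by both groups, and the groups are apart for Rbp4, Ahsg and Fetub (higher) and for Ttr and Afm (lower), which is the unscaled direction.

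Relative to the bulk of the transcriptome, 8 of the 9 carriers were higher after ethanol and none was lower (adjusted p under 0.05, edgeR's quasi-likelihood test, Benjamini-Hochberg over all genes tested). Among all genes tested, 21.5% were called higher and 21.5% lower by the same rule. The members' median log2FC was 0.69, against -0.04 for all genes. With TMM restricted to genes of mean FPKM 5 or more, these medians were 0.41 and 0.01. Rbp4 and Fetub also passed the fold threshold of the study (log2FC beyond 1, here called a DEG), a rule met upward by 10.4% of all genes. Neither was a DEG with library size alone, with limma on FPKM, or with TMM restricted to genes of mean FPKM 5 or more (log2FC 0.85 for Rbp4 and 0.90 for Fetub). All 3 ethanol-exposed mice lay above all 3 control mice in CPM for 8 members, as they did for 28.0% of genes; no member lay wholly below, against 31.0% of genes. As a share of all counts the picture was different: Rbp4, Ahsg and Fetub did not overlap and were higher, which held for 9.55% of genes, Ttr and Afm did not overlap and were lower, which held for 57.3%, and the groups overlapped for Alb, Gc, Hrg and Azgp1. With library size alone the same edgeR test called 3 members higher (7.39% of all genes) and 1 lower (48.3%). Without the factors the fitted log2FC was below 0 for Ttr and Afm, and within its standard error of 0 for Gc, Hrg and Azgp1. All 9 members were above the median of all genes under both scalings, but a change of scaling moves all genes about alike. Under the filter on mean FPKM and with limma on log2(FPKM + 1), 8 members were above it and Afm was below.

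**Figure D2:**
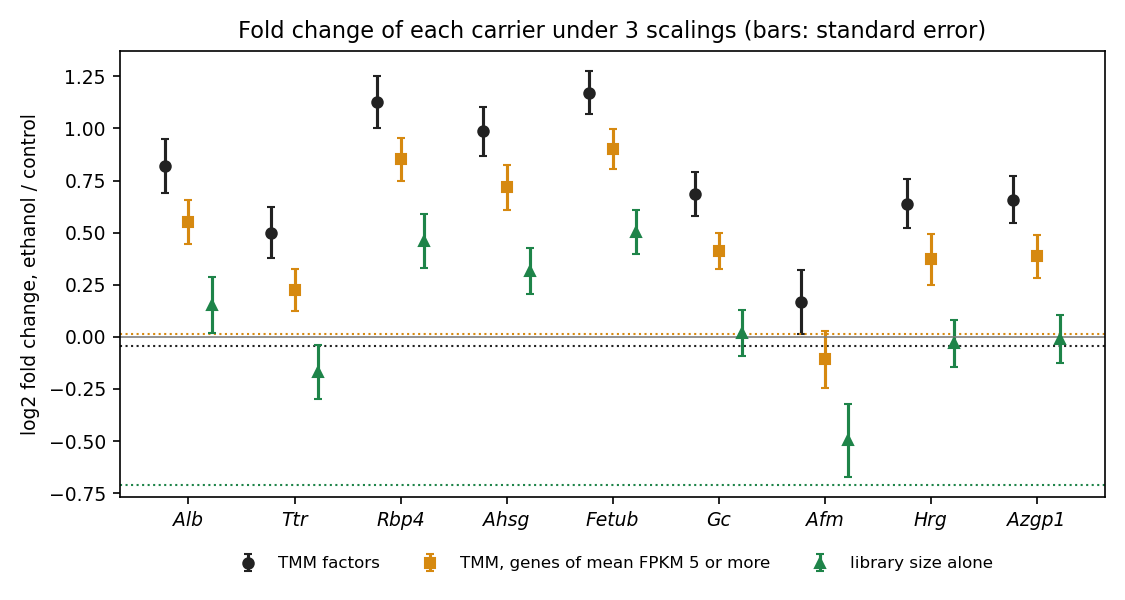
Log2FC (ethanol against control) of each carrier with its standard error, under TMM scaling (black), TMM restricted to genes of mean FPKM 5 or more (orange) and library size alone (green), with dotted lines for the median of all genes tested under each. The 3 series run in parallel; Rbp4, Ahsg and Fetub are above 0 under all of them, Ttr and Afm fall below 0 with library size alone (Afm also in the orange series), and Gc, Hrg and Azgp1 are then within 1 standard error of 0.

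Alb took 7.21%, 7.92% and 7.20% of all counts in ethanol replicates 1 to 3, and 7.55%, 6.29% and 6.24% in control replicates 1 to 3. Control replicate 1 lay within the range of the ethanol-exposed mice, so the groups overlapped (exact permutation test, two-sided, p = 0.3; 3 against 3 cannot go below 0.1). In TMM-scaled CPM, Alb was at 92779, 94791 and 93901 in the ethanol-exposed mice and at 59735, 49938 and 49630 in the control mice. On that scale the groups did not overlap, with a 1.77-fold higher level (log2FC 0.82, standard error 0.13, adjusted p = 0.00273, edgeR). With library size alone the log2FC of Alb was 0.15 (standard error 0.13, adjusted p = 0.363). Alb (ENSMUSG00000029368) lies on chromosome 5, 90608756 to 90624461, plus strand, in the deposited table's coordinates.

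The retinol and thyroxine carriers moved apart from each other. Ttr (ENSMUSG00000061808), whose tetramer binds thyroxine and keeps small Rbp4 from being filtered by the kidney, took 0.548%, 0.528% and 0.439% of counts after ethanol and 0.587%, 0.549% and 0.567% in controls. Every ethanol-exposed mouse was below every control mouse, by a narrow margin between ethanol replicate 1 and control replicate 2, and the exact permutation p was 0.1, the smallest possible. Rbp4 (ENSMUSG00000024990, chromosome 19, 38105077 to 38113729, minus strand), which carries retinol out of the liver, took 0.275%, 0.266% and 0.216% after ethanol and 0.180%, 0.184% and 0.186% in controls. Here every ethanol-exposed mouse was above every control mouse, ethanol replicate 3 being the lowest of its group for both genes. In TMM-scaled CPM, Rbp4 rose from 1457 ± 28.6 to 3181 ± 358 (SD, n = 3), 2.18-fold (log2FC 1.13, standard error 0.12, adjusted p = 0.000693, edgeR), and by 0.46 on the log2 scale with library size alone (adjusted p = 0.0206). Ttr was at 4505 ± 142 CPM in controls and 6364 ± 660 after ethanol (SD, n = 3), a log2FC of 0.50 (adjusted p = 0.0153, edgeR) that was -0.17 with library size alone (adjusted p = 0.302). The call of Ttr was lost without control replicate 2 (log2FC 0.47, adjusted p = 0.0784) or control replicate 3 (log2FC 0.50, adjusted p = 0.0632), where its size hardly moved, and also with the transcript length trend removed (log2FC 0.34, adjusted p = 0.0613) and among genes of mean FPKM 5 or more (log2FC 0.22).

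The ratio of 2 genes within a library does not depend on scaling. The FPKM ratio of Rbp4 to Ttr was 0.443, 0.445 and 0.435 after ethanol and 0.271, 0.296 and 0.290 in controls. The ratio was thus 1.54-fold higher after ethanol, with a range within each group much narrower than the gap between them. It was singled out after its values were seen. Over all 36 pairs of members the ratio did not overlap between the groups in 27, each with the smallest exact permutation p of 0.1 (0.133 after Benjamini-Hochberg adjustment over the 36). Among all pairs of the 4317 genes of mean FPKM 5 or more that were above 0 in every library 67.8% did not overlap, and nothing particular to the carriers is read from the count.

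**Figure D3:**
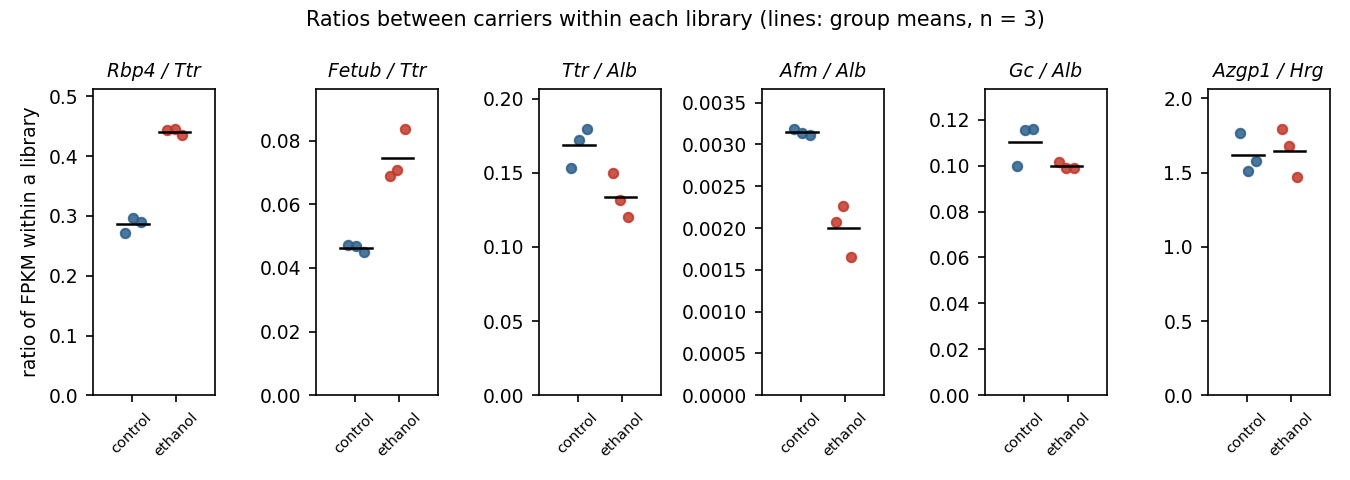
FPKM ratios between pairs of carriers within each library, with axes from 0, 1 point per mouse (blue, control; red, acute ethanol; n = 3 each) and black lines for group means. Rbp4 and Fetub are higher relative to Ttr after ethanol, Ttr and Afm are lower relative to Alb, and Gc to Alb and Azgp1 to Hrg overlap between the groups.

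Among the cystatin-like carriers, both fetuins were called higher by edgeR under either scaling and Hrg under TMM scaling only. Ahsg, which binds calcium phosphate and limits its deposition in soft tissue, took 0.888%, 0.827% and 0.884% of counts after ethanol and 0.681%, 0.705% and 0.703% in controls, with no overlap. In CPM it rose from 5525 ± 119 to 10947 ± 910 (SD, n = 3), a log2FC of 0.99 (standard error 0.12, adjusted p = 0.000945, edgeR) that stayed just inside the DEG threshold, and of 0.32 with library size alone (adjusted p = 0.0431). With limma on log2(FPKM + 1) its call was lost (adjusted p = 0.0757). Ahsg became a DEG with the transcript length trend removed (log2FC 1.01) and without ethanol replicate 2 (log2FC 1.05). Fetub, an inhibitor of astacin proteases needed for female fertility, had with Rbp4 the highest fold changes of the 9 members, and the order of these genes depended on ethanol replicate 3 (1.17 for Fetub and 1.22 for Rbp4 without it). It took 0.0625%, 0.0618% and 0.0608% of counts after ethanol and 0.0460%, 0.0426% and 0.0421% in controls, so the 3 ethanol-exposed mice were close together and well above the controls. Its CPM rose 2.25-fold from 346 ± 15.7 to 779 ± 34.1 (SD, n = 3; log2FC 1.17, standard error 0.10, adjusted p = 0.000301, edgeR), and its log2FC with library size alone was 0.50 (adjusted p = 0.00553). Hrg, which binds heparin, zinc and plasminogen, took 0.0686%, 0.0711% and 0.0786% after ethanol and 0.0743%, 0.0769% and 0.0719% in controls. These overlapped, the highest and the lowest of all 6 values both being ethanol-exposed mice. Hrg had a log2FC of 0.64 in TMM-scaled CPM (standard error 0.12, adjusted p = 0.00463, edgeR) and of -0.03 with library size alone (adjusted p = 0.827).

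Gc and Azgp1 overlapped between the groups as a share of counts. Gc, which also binds actin released from dying cells, took 0.577%, 0.619% and 0.561% of counts after ethanol and 0.593%, 0.572% and 0.570% in controls. All 3 control values lay inside the ethanol range. Azgp1, a soluble protein with a fold like that of MHC class I heavy chains, took 0.0993%, 0.0962% and 0.0934% after ethanol and 0.106%, 0.0939% and 0.0916% in controls, and the groups overlapped. Relative to TMM scaling Gc had a log2FC of 0.69 (standard error 0.10, adjusted p = 0.00229) and Azgp1 of 0.66 (standard error 0.11, adjusted p = 0.00362, edgeR for both), and with library size alone these were 0.02 (adjusted p = 0.905) and -0.01 (adjusted p = 0.937).

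Afm was the member that did not pass the test under TMM scaling. It was at 249, 278 and 202 CPM after ethanol and 247, 203 and 201 CPM in controls, which overlapped (log2FC 0.17, standard error 0.15, adjusted p = 0.409, edgeR). Its share of counts was 0.0194%, 0.0233% and 0.0155% after ethanol and 0.0312%, 0.0255% and 0.0252% in controls, every ethanol-exposed mouse being below every control mouse. With library size alone Afm fell by 0.50 on the log2 scale (standard error 0.17, adjusted p = 0.0438, edgeR). The TMM-scaled log2FC of Afm was 0.06 without ethanol replicate 2 and 0.30 without ethanol replicate 3, and neither passed the test. Relative to Alb, its FPKM ratio was 0.00207, 0.00226 and 0.00166 after ethanol and 0.00318, 0.00313 and 0.00312 in controls, 0.635 times the control mean and lower in 3 of 3 mice.

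**Figure D4:**
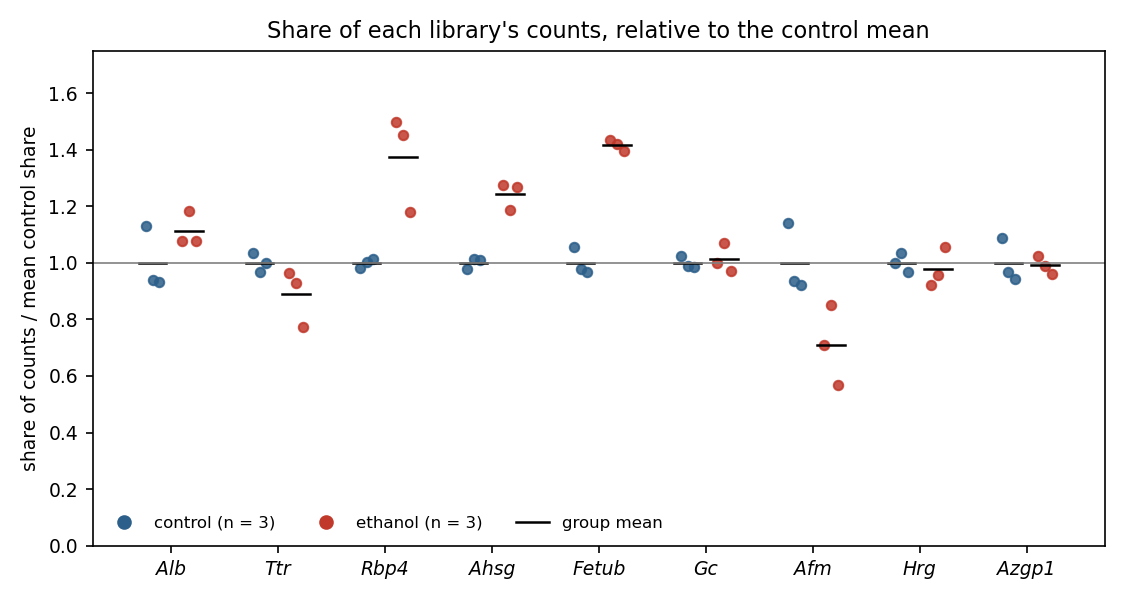
Share of each library's counts taken by each carrier, divided by the mean control share of that gene, with 1 point per mouse (blue, control; red, acute ethanol; n = 3 each) and black lines for group means. Without scaling factors Rbp4, Ahsg and Fetub are higher in all 3 ethanol-exposed mice, Ttr and Afm are lower in all 3, and Alb, Gc, Hrg and Azgp1 overlap with the control mice.

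Together the 9 carriers took 9.75%, 10.4% and 9.55% of all counts after ethanol and 9.85%, 8.54% and 8.50% in controls. The ranges overlapped through control replicate 1. Without Alb the other 8 took 2.35% to 2.54% after ethanol and 2.25% to 2.30% in controls, and Alb made up 73.4% to 76.7% of the sum over the 6 libraries. As a share of summed FPKM, which weights transcripts by length, the 9 took 8.98% ± 0.715 after ethanol and 9.10% ± 1.19 in controls (SD, n = 3). Transcripts of the mitochondrial genome, which enter the same totals, took 8.50% to 9.26% and 5.45% to 7.40%. Their part in these shares was not tested beyond leaving them out of the total, which moved no member's log2 ratio of group mean shares by more than its spread between mice.

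Of the 9 genes, 6 lie in 2 clusters of related genes. Alb, Afm and Gc lie near each other on chromosome 5 with the fetal gene Afp and the albumin-like Albfm1, and Ahsg, Fetub and Hrg lie together on chromosome 16. RefSeq promoter windows (GRCm38.p6), matched by symbol, were at hand for 8 of the 9 members, with 10 windows in all; none was used for Ttr. Those of Ahsg and Hrg are shown because both hold the letters ATTGCNNAA, bound by C/EBP factors, within the 250 bases before the start (capitals: these letters or their reverse complement), 5′ to 3′ on the gene's strand. Ahsg is at chr16:22891765-22892014, plus strand. Hrg is at chr16:22950822-22951071, plus strand.
Ahsg: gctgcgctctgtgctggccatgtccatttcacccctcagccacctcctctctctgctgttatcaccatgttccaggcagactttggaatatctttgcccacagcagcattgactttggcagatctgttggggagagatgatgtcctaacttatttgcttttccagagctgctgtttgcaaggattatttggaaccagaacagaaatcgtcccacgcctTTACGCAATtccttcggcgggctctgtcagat
Hrg: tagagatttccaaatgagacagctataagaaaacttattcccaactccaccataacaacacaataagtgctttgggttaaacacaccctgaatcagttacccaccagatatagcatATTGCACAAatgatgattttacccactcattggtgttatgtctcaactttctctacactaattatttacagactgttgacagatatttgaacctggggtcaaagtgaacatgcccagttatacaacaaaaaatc
These letters began 32 bases before the start of the window's gene model in Ahsg and 134 in Hrg. The start in Hrg was matched to a GENCODE M21 (GRCm38) transcript of the gene, and that in Ahsg was not. They were in 1.93% of all 32851 promoter windows of this length, searched on both strands. The FOXA letters TGTTTAC were in 1 window each of Rbp4 and Fetub (3.17%), and TATAAA in 1 window each of Rbp4, Fetub and Afm (12.4%). The start of the Rbp4 window with the FOXA letters was not matched to a transcript either. TTGCGCAA (C/EBP), CAAAGTCCA (HNF4) and TTCNNNGAA (STAT3) were in 0 of the 10 (0.164%, 0.384% and 7.02% of all). A match of letters is a description only, and Ahsg and Hrg had TMM-scaled log2FC values of 0.99 and 0.64, the latter turning to -0.03 with library size alone.

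Neighbours in these clusters did not all follow the carriers. In the albumin cluster Afp, the fetal counterpart of albumin, was at 36 to 58 counts after ethanol and 141 to 199 in controls and fell by 1.36 on the log2 scale (adjusted p = 0.00810, edgeR), while Albfm1 had 0.07 (adjusted p = 0.826), which was -0.59 (adjusted p = 0.0652) with library size alone. In the fetuin cluster on chromosome 16, Ahsg (22710027 to 22718199), Fetub (22737084 to 22758528), Hrg (22769822 to 22780406) and the kininogen genes Kng2 and Kng1 follow each other within the deposited coordinates. All 5 were higher under TMM scaling. The kininogens, precursors of bradykinin, had log2FC values of 0.86 for Kng1 (adjusted p = 0.00116) and 1.56 for Kng2 (adjusted p = 0.000173), the latter in a locus shared with the predicted gene Gm6493 on the same strand. With library size alone 3 of the 5 remained called, Ahsg, Fetub and Kng2. Ahsg and Afm each overlap a predicted gene on the opposite strand, Gm30505 with at most 195 counts and Gm42109 with at most 67, and the other 7 members overlap no other gene in the table.

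Genes that handle the carriers' cargo were read from lists chosen by role. Of 12 tested genes of retinol and thyroxine carriage, Rbp4 and Ttr included, 4 were higher and 2 lower under TMM scaling, with a median log2FC of 0.39. Cyp26a1, which breaks down retinoic acid, rose from 20.8 ± 4.20 to 90.6 ± 49.2 CPM (SD, n = 3; log2FC 2.12, adjusted p = 0.00900, edgeR). Dhrs3, which returns retinal to retinol, fell from 135 ± 12.0 to 39.7 ± 2.15 CPM (log2FC -1.77, adjusted p = 9.84e-05), and both calls held with library size alone. Serpina7, encoding thyroxine-binding globulin, fell by 0.87 on the log2 scale (adjusted p = 0.0189), and the hepatic RBP4 receptor gene Stra6l was at 0.30 (adjusted p = 0.0506), turning to -0.37 with library size alone (adjusted p = 0.0212). With that scaling 2 genes of the list were called higher and 5 lower. In vitamin D handling, 4 of 6 tested genes, Gc included, were higher and 1 lower (2 and 2 with library size alone). Cyp27a1, a mitochondrial sterol 27-hydroxylase, rose 2.40-fold (log2FC 1.26, adjusted p = 0.000370) and the vitamin D 25-hydroxylase Cyp2r1 fell by 0.76 (adjusted p = 0.0214). Vdr, the vitamin D receptor, had 43 to 75 counts after ethanol and 0 in controls, at least 26.8-fold higher under TMM scaling and 16.8-fold with library size alone, against a limit of 3 counts per library. It passed the filter on low counts through the ethanol-exposed mice. Nothing is therefore read from its call, which is among the 4 and the 2 higher. Of 9 genes of albumin recycling and glycoprotein uptake, 3 were higher and 0 lower, with a median of -0.20 (0 and 5 with library size alone, median -0.88). Fcgrt, whose protein FcRn rescues albumin from lysosomes, had a log2FC of 0.64 (adjusted p = 0.00814), its light chain B2m of 0.43 (adjusted p = 0.0151) and the asialoglycoprotein receptor subunit Asgr1 of 0.70 (adjusted p = 0.00202), and with library size alone these were -0.03, -0.24 and 0.03, with none called.

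Regulators of hepatocyte secretory genes moved in both directions, 8 of 17 higher and 2 lower with a median log2FC of 0.66 (5 and 6 with library size alone, median 0.0023). Cebpb and Cebpd, C/EBP factors of the acute-phase response, rose by 3.30 (adjusted p = 6.40e-05) and 4.07 (adjusted p = 6.79e-05) on the log2 scale, Stat3 by 2.03 (adjusted p = 0.000121) and Hnf4a by 0.69 (adjusted p = 0.00243, edgeR for all). Foxa1 and Nr5a2 fell by 0.81 and 0.68, and Cebpa (0.14, adjusted p = 0.688, turning to -0.52 with library size alone) was not called. Of these, Cebpb, Cebpd and Stat3 remained called higher with library size alone and Hnf4a did not.

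The carriers were also set beside other secreted proteins. Of 20 tested genes for other negative acute-phase or constitutive plasma proteins, 14 were higher and 1 (Serpina7) lower, with a median log2FC of 0.58 and of -0.09 with library size alone (4 higher, 6 lower), next to 0.69 and 0.02 for the 9 carriers. Among them Apoa1 rose by 1.24 (adjusted p = 0.000549), Serpina6, encoding corticosteroid-binding globulin, by 1.90 (adjusted p = 0.000385) and Itih2 by 1.31 (adjusted p = 0.000357, edgeR for all). Of 20 positive acute-phase genes 14 were higher and 0 lower, with a median of 2.23 and of 1.54 with library size alone (12 higher, 3 lower). The contrasts of the carriers with these lists were described and not tested.

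**Figure D5:**
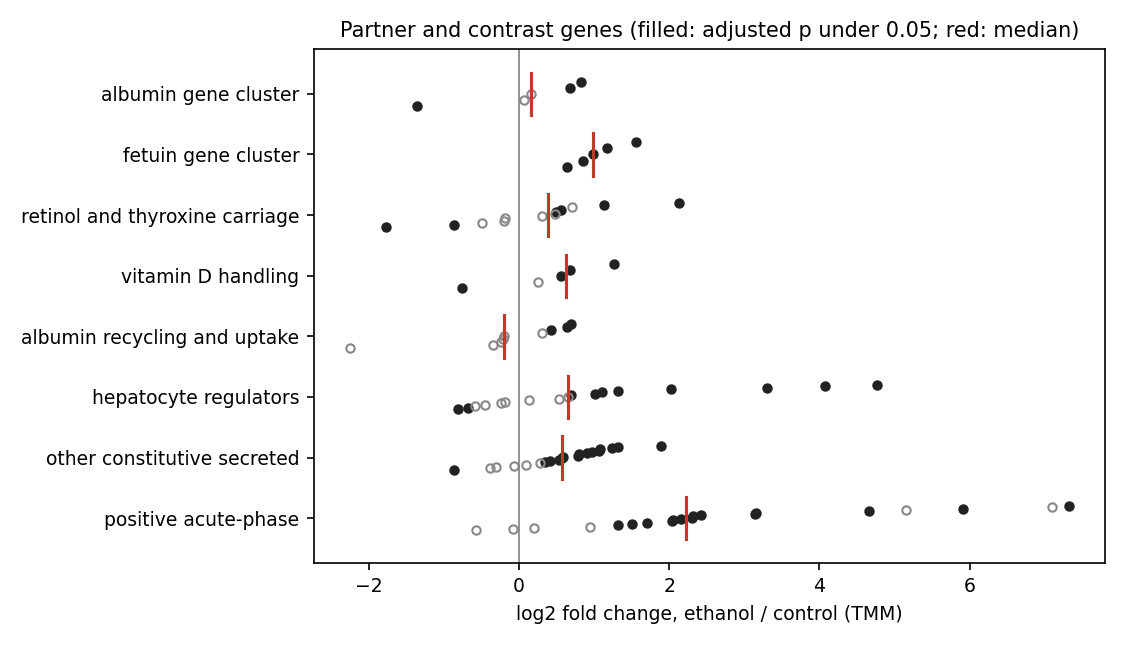
TMM-scaled log2FC (ethanol against control) of each tested gene in the lists of cluster neighbours, cargo handling, regulators and other secreted proteins, with filled points for an adjusted p under 0.05, open points otherwise and red bars for list medians; Vdr, undetected in controls, is left out. The fetuin cluster lies wholly above 0 (Hrg falls to -0.03 with library size alone), the regulators spread to both sides, and the positive acute-phase list has the highest median, 2.23.

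The genes whose levels were most like those of Alb over the 6 libraries, among 3944 candidates and by root mean squared difference of centred log2 CPM, were Gpt (0.03), Hsd11b1 (0.05), Kng1 (0.05), Nup50 (0.06) and Gng12 (0.06). Among the carriers themselves Gc and Azgp1 were nearest to Alb (0.10 for both) and Afm farthest (0.36). For the median profile of the 9 the nearest genes were Ddt, Zfp598, Ctsa, Amy1 and Sh3glb1, at 0.02 to 0.03.

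In bulk liver, fewer cells of a type and less RNA per cell cannot be told apart. Hepatocyte markers other than the members were present in all libraries, summing to 41252 to 54276 CPM after ethanol and 23791 to 25945 in controls, with 6 of 10 called higher and 0 lower (3 and 2 with library size alone). Adipocytes also express Rbp4 and Azgp1, and their defining markers were near 0, with 0 counts of Adipoq and Lep after ethanol and at most 12 and 4 in controls, and at most 3 and 18 of Plin1. Of the other adipocyte markers, which other cells also express, Fabp4 rose 3.23-fold (adjusted p = 0.0171, edgeR), a call lost with library size alone (adjusted p = 0.0679), Lpl was at -0.45 on the log2 scale (adjusted p = 0.122; called lower with library size alone, -1.12) and Cfd at -0.39 (adjusted p = 0.786). The 6 together summed to 26.8 to 46.0 CPM after ethanol and 18.9 to 33.2 in controls. Markers of other cells were also read, and their part in the results was not tested. Among all genes tested, 21.5% were called higher and 21.5% lower under TMM scaling, and 7.39% and 48.3% with library size alone. Counts near these shares, as for the stellate cells below, are not read as a change of the markers. Erythroid markers summed to 579 to 864 CPM after ethanol and 180 to 220 in controls. Of 5 tested, 4 were higher, and with library size alone 4 were higher and 1, Alas2, lower. Neutrophil markers summed to 2.12 to 12.1 CPM after ethanol and 0.171 to 0.401 in controls. Of these 6 markers 4 were tested, and all were called higher under both scalings. In controls S100a8, Retnlg and Cxcr2 had at most 4, 8 and 10 counts. They passed the filter on low counts through the ethanol-exposed mice, so nothing is read from their calls. Kupffer cell and macrophage markers summed to 128 to 174 and 164 to 187 (0 of 10 higher, 2 lower; 8 lower with library size alone), and endothelial markers to 102 to 169 and 121 to 138 (2 of 8 higher, 4 lower; 2 and 5 with library size alone). The remaining lists had sums of 146 to 181 and 128 to 162 for stellate cells (2 of 10 higher, 1 lower, but 0 and 5 with library size alone) and of 57.6 to 75.0 and 31.8 to 73.3 for cholangiocytes (1 of 5 higher; 1 higher and 1 lower with library size alone). T cells, B cells and pancreas had 2, 4 and 1 genes tested, with 0 higher and 0, 1 and 1 lower under both scalings. The B cell call was Ms4a1, at 0 to 4 counts after ethanol and 20 to 28 in controls. It passed the filter through the controls, so nothing is read from it. The pancreas call was Cela1. The untested pancreas genes Pnlip, Amy2a5 and Prss2 had 0 counts in controls and at most 43, 12 and 4 after ethanol.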

How the data were processed

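RNA from 6 mouse livers was sequenced as 150 bp read pairs. For each Ensembl gene the authors deposited a raw count of reads and an FPKM value, made from adaptor- and quality-filtered reads; the aligner, counter and use of strand are not given in the sources used here. The submitters' notes name GRCm38 (mm10), but 1.83% of 27049 shared genes have their GENCODE M21 (GRCm38) coordinates in the table, so the table's positions are given as deposited, and promoter windows are on GRCm38.p6. Of the columns of counts, 1 matches no library and was not used.

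Members and lists were chosen with earlier results of these data known. All 9 members are named; other genes come from lists by role, and the 5 nearest to Alb or the members' median profile have a mean FPKM of at least 5. Counts were tested with edgeR 4.0.16 (filterByExpr, TMM, quasi-likelihood test without covariates, two-sided, standard error from the F statistic) in R 4.3.3, with Benjamini-Hochberg adjustment over 16717 genes. A DEG passed 0.05 for its adjusted p and 1 for the size of its log2 fold change, as in the study's methods. No library of a group above 3 counts was taken as no detection of that gene. Shares of counts were compared by exact permutation. The edgeR, DESeq2 and voom fits were tested on simulated counts. The labels name the same batch for all 6 libraries but do not say what it covers, or whether mice were housed apart. The p-values therefore measure the spread between these samples. Same-group libraries were no duplicates, with 53.9 to 545 for chi-square over degrees of freedom. Some results on regulators and promoter motifs are not reported here. The alternatives were other scalings, filters and units, DESeq2 1.42.0, limma 3.58.1, the replicate number as a block, and each library left out.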

Additional observations from a re-analysis of the deposited data

How the results depend on the processing

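Of 153 fold changes of members recomputed under 17 alternatives each, 128 kept their direction and side of the threshold, 12 lost their call (4 of Ttr, 3 each of Alb and Gc, 2 of Ahsg) and 13 turned. Rbp4 and Fetub kept their adjusted p under 0.05 in all 17. Those that turned did so with library size alone, with limma on log2(FPKM + 1) and with limma on log2(FPKM + 0.1), in that order: Ttr at -0.17, -0.18 and -0.18, Afm at -0.50, -0.50 and -0.51, Hrg at -0.032, -0.037 and -0.037, and Azgp1 at -0.012, -0.013 and -0.013. These settings use no TMM factors, and FPKM is scaled to library size. Afm was also at -0.11 under the FPKM filter, which keeps genes of mean FPKM 5 or more. Under the 3 settings the members called higher were 3, 2 and 2 instead of 8, and the members called lower 1, 1 and 1 instead of 0. Members that were DEGs numbered 2 upward in the reported fit and 0 under these settings and the FPKM filter. They numbered 3 with the transcript length trend removed and 8 with no threshold on the fold change. Over all genes there were 1738 upward and 2301 downward DEGs. These became 846 and 5385 with library size alone, 429 and 443 under the FPKM filter, and 735 and 4964 with limma on log2(FPKM + 0.1). With limma on log2(FPKM + 1) they were 408 and 1704, and with no threshold on the fold change 3598 and 3591. The cause of the change with the FPKM filter was not tested. The log2 ratio of the summed share of the 9 members was 0.14 by counts and -0.02 by summed FPKM. The change of total lowered each member's own ratio by about the same amount, so this is not a separate result for each member. The ratio was 0.0003 instead of 0.15 for Alb, 0.16 instead of 0.32 for Ahsg, -0.13 instead of 0.02 for Gc and -0.18 instead of -0.03 for Hrg. When libraries were omitted one at a time, 7 to 8 members were called higher and 2 to 3 were DEGs. Same-numbered libraries share only a number (correlations of their deviations from -0.04 to -0.01); with the replicate number as a block, 8 members were called higher and 2 were DEGs. Depth limits no member, and 3 mice per group limit the precision.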
